A study of Mus musculus with 3 samples.

Results

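Conventional type 1 dendritic cells are immune cells that take up dead cells and display their proteins to T cells. In ovaries of young and aged C57BL/6 mice, 188 of 14353 sequenced cells were chosen as such by a rule: the authors' name "Dendritic cell I" and at least 2 unique molecular identifiers (UMIs, each 1 captured RNA molecule) summed over Xcr1, Clec9a and Wdfy4. The rule took 188 of the 436 cells of that name. Levels of these 3 genes chose the cells and are given below only as a description.

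For each condition 1 suspension was made from the left ovaries of 3 C57BL/6 females of a group of 5, and tagged cells of all conditions were mixed in 3 pools called A, B and C. The young mice were 3 months old and untreated. The metformin mice began the drug (350 mg/kg/day, by drinking water) when 14 months old and stayed on it for 6 months. The aged control cells came from mice given no drug, whose age the cell table does not state. Ovaries were cut up and digested in enzymes for 30 min at 37 °C, passed through a 40 µm strainer that holds back oocytes, freed of red cells and prepared for flow sorting, whose gate is not stated. A condition is therefore 1 sample of pooled ovaries, its cells in the 3 pools are technical repeats, and no test or p-value can be given. The young ovaries gave 144 of the chosen cells, the aged 17 and the metformin ovaries 27. Their UMIs summed to 1168568, 134042 and 214050, with medians per cell of 7990, 8677 and 7938. The 4 aged cells of pool C stood apart, with a median of 2986 UMIs and 3.82% of UMIs from mitochondrial genes, against 1.68%, 1.76% and 1.67% over the 3 conditions. No chosen cell shared its barcode with a cell of another pool.

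This dendritic cell lineage depends on the transcription factors Irf8, Batf3 and Id2. Clec9a binds actin laid bare on dead cells, Wdfy4 is needed to present antigen taken from cells, and Xcr1 is the receptor for Xcl1, a chemokine of natural killer and CD8 T cells. Naaa is a lysosomal amidase used as a marker of the lineage. In the ovary, follicles that degenerate and corpora lutea that regress leave dead cells throughout reproductive life.

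The label held for most of the chosen cells and not for all. In the authors' clustering, 136 of the 188 cells (72.3%) lay in cluster 18, and 52 lay elsewhere: 47 in cluster 10, 4 in cluster 17 and 1 in cluster 1. The cells of cluster 18 held the genes of the lineage beyond the rule. Levels are given as CPM, the UMIs of a gene per 1000000 UMIs of the cells named, and those of different genes are not compared, since a 3′ count depends on the transcript. Naaa stood at 1098 CPM in the 136 cells, at 131 CPM in the 52 cells elsewhere and at 121 CPM in the 248 Dendritic cell I cells that were not chosen. Irf8 followed the same order with 1420, 107 and 55.5 CPM, and Tlr3, a sensor of double-stranded RNA, with 176, 9.14 and 8.77 CPM. The 52 cells elsewhere instead carried genes of the second conventional lineage. Cd209a, a lectin of those cells, was at 1246 CPM there, at 3.37 CPM in cluster 18 and at 1123 CPM in the cells not chosen. Mgl2, another such lectin, was at 588, 4.21 and 1026 CPM. The genes used for the clustering are not stated, and a cluster against other cells is no test, so these differences are descriptive.

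**Figure D1:**
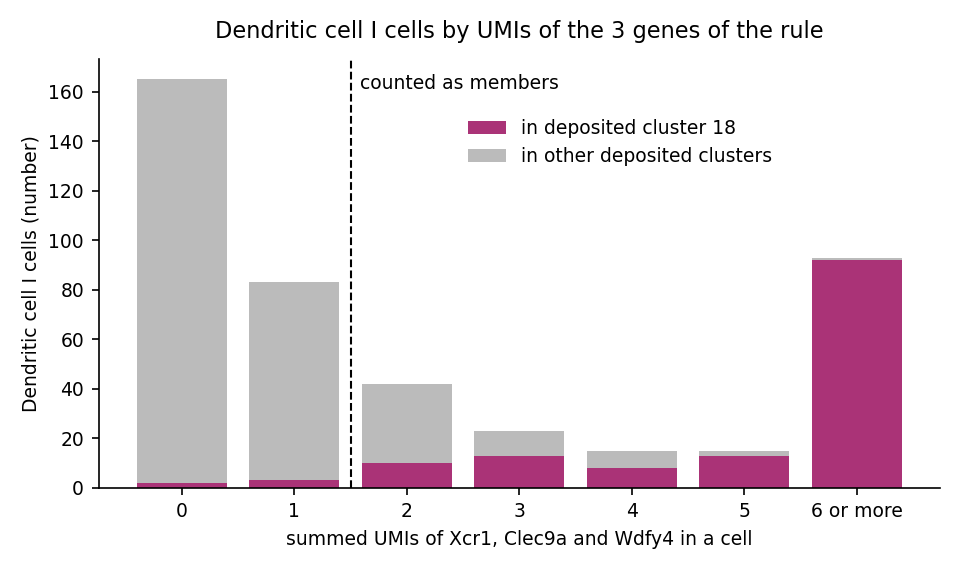
Number of Dendritic cell I cells (vertical axis) by the summed UMIs of Xcr1, Clec9a and Wdfy4 in the cell (horizontal axis), coloured by the authors' cluster. With 1 UMI 3 of 83 cells lay in cluster 18, with 2 UMIs 10 of 42, and with 6 or more 92 of 93.

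Cells near the threshold mostly lay outside cluster 18, as the plot of cells by UMIs of the rule shows. Just outside it, 83 cells had 1 UMI and 3 of them lay in cluster 18. Just inside it, 42 cells had 2 UMIs and 10 lay there. Of the 93 cells with 6 or more UMIs, 92 did. The cells outside cluster 18 met the rule mostly through Wdfy4, which 45 of the 52 carried alone. Wdfy4 alone chose 35 of 144 young cells, 5 of 17 aged cells and 13 of 27 metformin cells. The share of chosen cells in cluster 18 was 75% (exact Clopper-Pearson 95% interval 67.1% to 81.8%) in young, 82.4% (56.6% to 96.2%) in aged and 51.9% (31.9% to 71.3%) in metformin ovaries. Results are therefore given for all 188 cells and, where they differ, for the 136 of cluster 18. Naaa, a marker the rule did not use, was found in 85.4% of young, 88.2% of aged and 66.7% of metformin cells, and in 96.3%, 100% and 100% of those in cluster 18. In the T cell/NKT class, which should lack it, the shares were 2.38%, 2.26% and 2.90% at medians of 2402, 2033 and 1922.5 UMIs.

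**Figure D2:**
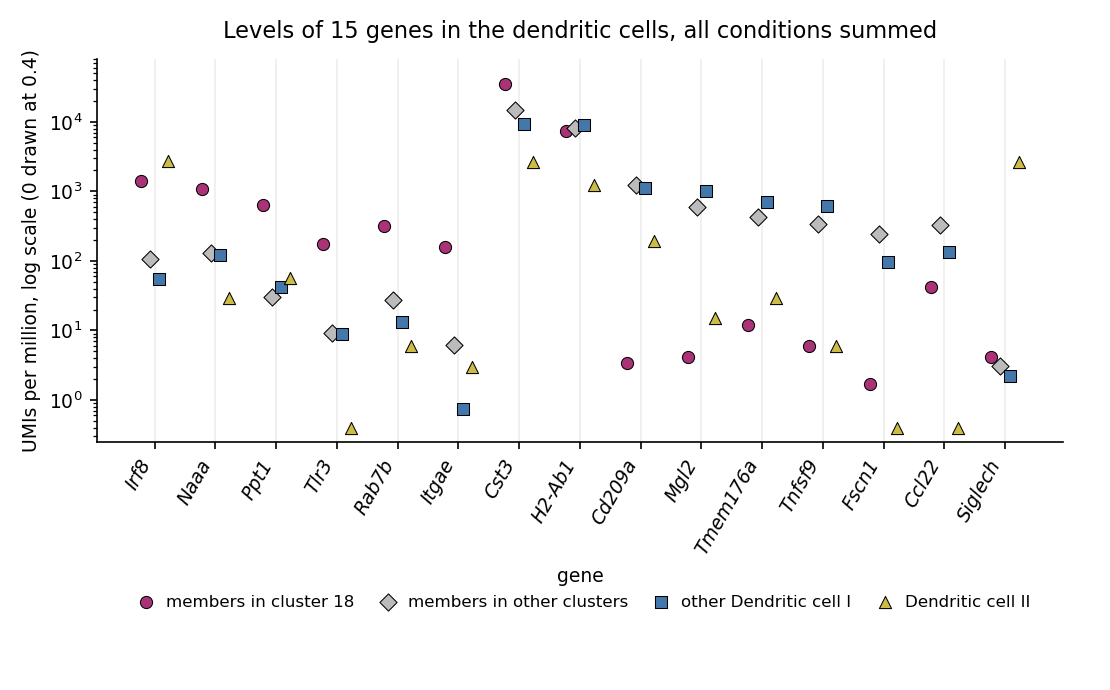
Levels in CPM (vertical axis, log scale) of 15 genes (horizontal axis) in 4 sets of cells, each summed over the 3 conditions (members are the chosen cells, and a level of 0 is drawn at 0.4). Chosen cells of cluster 18 stand high for Irf8, Naaa, Ppt1, Tlr3, Rab7b and Itgae, while those of other clusters lie nearer to the Dendritic cell I cells not chosen for these genes and for Cd209a and Mgl2.

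Beside the other Dendritic cell I cells, genes of several roles stood higher in the chosen cells of cluster 18. Ppt1, a lysosomal thioesterase, was at 644 CPM in cluster 18 and 42.4 CPM in the cells not chosen. Rab7b, a small GTPase of late endosomes, was at 317 and 13.2 CPM. Itgae, the integrin chain CD103 that binds E-cadherin, was at 161 and 0.73 CPM. Further such genes were Ifi205, an interferon-inducible gene, with 327 and 18.3 CPM, and the chemokine receptor Cxcr3 with 62.3 and 1.46 CPM. The lowest included Fabp5, a fatty acid carrier (13.5 and 498 CPM), and Tnfsf9, the ligand of 4-1BB (5.89 and 621 CPM). Dendritic cell II held plasmacytoid genes: Siglech was at 2607 CPM there and at 4.21 CPM in cluster 18. Markers of T cells, natural killer cells, neutrophils and endothelium each summed to at most 30.8 CPM in the chosen cells of any condition. Macrophage markers summed to 104 CPM in young, 14.9 CPM in aged and 18.7 CPM in metformin cells, with 8 of 10 at 0 in each of the latter. Monocyte markers summed to 681, 552 and 481 CPM, with 2 of 6 at 0 in young and 4 of 6 in each other condition. Plasmacytoid markers summed to 199, 187 and 206 CPM and B cell markers to 181, 164 and 196 CPM. The highest sums of some other lists lay mostly in 1 cell. In young cells these were fibroblast markers (101 CPM, 57.6% in 1 cell) and smooth muscle and pericyte markers (43.6 CPM, 88.2%). In metformin cells these were granulosa (60.7 CPM, 92.3%) and theca and luteal markers (659 CPM, 98.6%). Mast cell markers reached 79.4 CPM in metformin cells, with 11.8% in 1 cell. The part of other cell types in the results was not tested.

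Chosen cells were a smaller share of the aged than of the young ovary. They made up 1.89% of young cells (1.60% to 2.22%), 0.571% of aged cells (0.333% to 0.912%) and 0.719% of metformin cells (0.474% to 1.05%). By pool A, B and C the young shares were 1.40%, 1.80% and 2.44%. The aged shares were 0.653%, 0.532% and 0.491%, all below the lowest young pool. The metformin shares of 0.763%, 0.872% and 0.567% lay among or just above the aged ones. The aged share was 0.302 times the young one (exact 95% interval 0.171 to 0.501, counting error only), and 0.466, 0.295 and 0.202 times within pools A, B and C. Metformin over aged gave 1.26 (0.662 to 2.46). Both ratios share the aged cells.

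**Figure D3:**
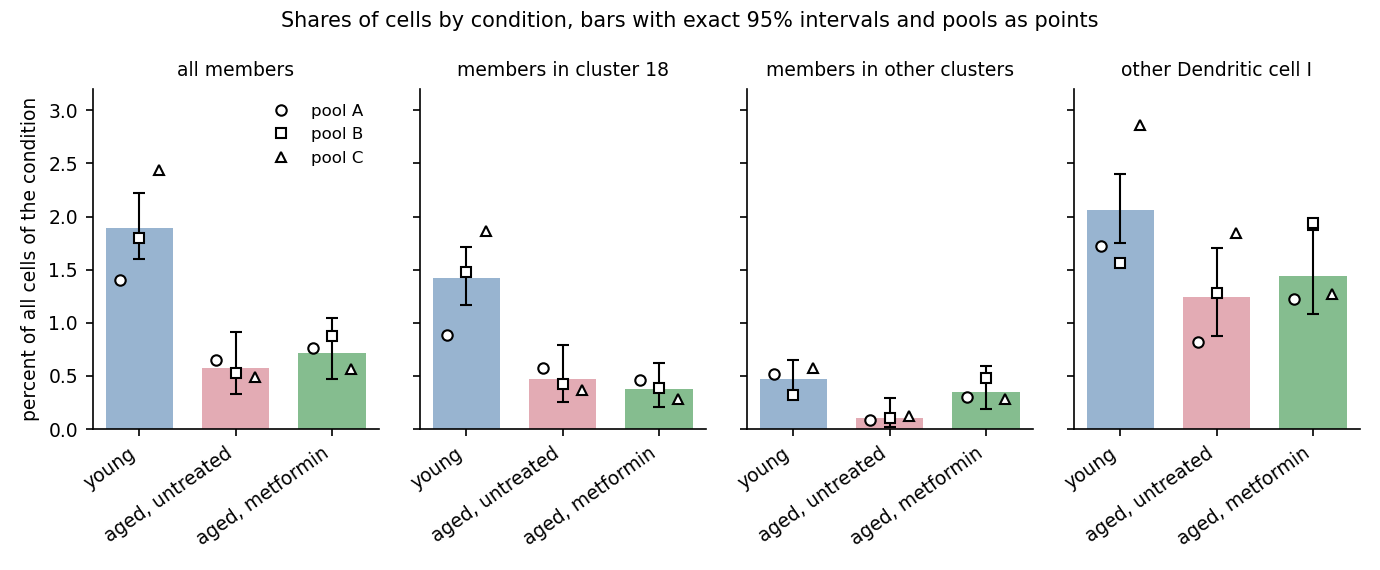
Percent of all cells of a condition (vertical axis) that were chosen cells, chosen cells inside or outside cluster 18, or other Dendritic cell I cells. Bars are all pools summed with exact 95% intervals, points are the pools, and members are the chosen cells. Young pools lie above aged pools for all chosen cells and for those in cluster 18, and the metformin bar lies above the aged one in each panel but that of cluster 18.

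The cells of cluster 18 gave the same picture between ages and another between the aged groups. Their shares were 1.42%, 0.470% and 0.373%, so that aged over young was 0.332 (0.175 to 0.581) and metformin over aged was 0.794 (0.351 to 1.80). Chosen cells elsewhere were 0.472%, 0.101% and 0.346%, and metformin over aged was 3.44 (0.945 to 18.8). Other immune classes went both ways. T cell/NKT numbered 168 of 7620 young and 221 of 2979 aged cells, and NK cell/ILC 433 and 195. Macrophage/Monocyte I made up 21.6% of young and 6.81% of aged cells, a ratio of 0.315 (0.271 to 0.365). The same ratio was 0.603 (0.409 to 0.867) for the Dendritic cell I cells not chosen and 0.523 (0.225 to 1.09) for Dendritic cell II. Among Dendritic cell I cells alone the chosen share was 47.8%, 31.5% and 33.3%, and the ratio of aged to young was 0.658 (0.373 to 1.09). With every cell thinned to 1000 UMIs before the rule was applied, aged over young was 0.462 (0.139 to 1.21). The unstated sorting gate and the strainer can set such shares, and their part was not tested.

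Gene levels within the chosen cells were compared over genes whose UMIs in the compared pair of conditions summed to at least 20, and a gene counts as past the fold when its log2 ratio of CPM, with 1 UMI added to each sum, is at least 1 in size. Of 5381 genes, 10.7% were past the fold higher in aged than in young cells and 5.24% lower. Of 2255 genes, 3.41% were past it higher in metformin than in aged cells and 3.9% lower. Between pools of young cells alone, 5.39% to 7.26% of genes were past the fold in either direction. The exact 95% interval of the ratio left out 0 for 9.71% to 13.2% of genes between young pools. It did so for 9.44% of genes for aged over young and 10.1% for metformin over aged. Past the fold in either direction were 16.0% and 7.32%. Both measures depend on depth: young pools held 273451 to 506344 UMIs and the aged cells 134042. Whether the conditions differed more than technical repeats can therefore not be told from these percentages. The median log2 ratio of all genes was 0.26 for aged over young and -0.04 for metformin over aged. It was 0.07 for aged over young when the added UMIs were scaled to the depth of each condition, and the part of past-fold genes that were higher was then 37.4% in place of 67.2%. Ratios of single genes below have no UMI added, and their exact 95% intervals cover counting error only. With 17 aged cells they do not cover the spread between cells or mice. Genes named by rank had to share their sign over the pools with at least 5 UMIs, so agreement of their pools is partly set by the choice. Both comparisons also share the aged cells. Pools that lie apart are therefore a description and no support.

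A group of genes higher in aged cells encoded chaperones and folding enzymes of the endoplasmic reticulum (ER), which help newly made secreted and membrane proteins fold. Hsp90b1 and Hspa5 came up by the rule for named genes, and the list of 15 ER genes was then drawn up after their values were seen, so its direction is no independent evidence. Hspa5, the ER chaperone BiP, was at 819, 831 and 1023 CPM in young pools A, B and C. It was at 1457, 1235 and 1853 CPM in aged pools and at 572, 1086 and 801 CPM in metformin pools. Each aged pool stood above every young and every metformin pool. Summed over pools the levels were 911, 1432 and 794 CPM, a log2 ratio of 0.65 (0.42 to 0.88) for aged over young and -0.85 (-1.16 to -0.55) for metformin over aged.

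Hsp90b1, the ER form of the Hsp90 chaperone, was at 607, 713 and 857 CPM in young pools, 1578, 1464 and 1359 CPM in aged pools, and 725, 910 and 582 CPM in metformin pools. Here too the aged pools did not overlap the others, and the summed ratios were 1.01 (0.79 to 1.23) and -1.02 (-1.33 to -0.71). Calr, the lectin chaperone calreticulin, was at 578, 589 and 494 CPM in young pools, 1147, 846 and 741 CPM in aged pools, and 637, 558 and 564 CPM in metformin pools. Its aged pools were again the highest, with ratios of 0.87 (0.60 to 1.15) and -0.75 (-1.11 to -0.39). Pdia3, a disulfide isomerase that also serves in loading MHC class I, had summed levels of 691, 947 and 523 CPM. Its aged pools, at 846 to 1025 CPM, lay above the young pools at 567 to 731 CPM and the metformin pools at 385 to 661 CPM.

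**Figure D4:**
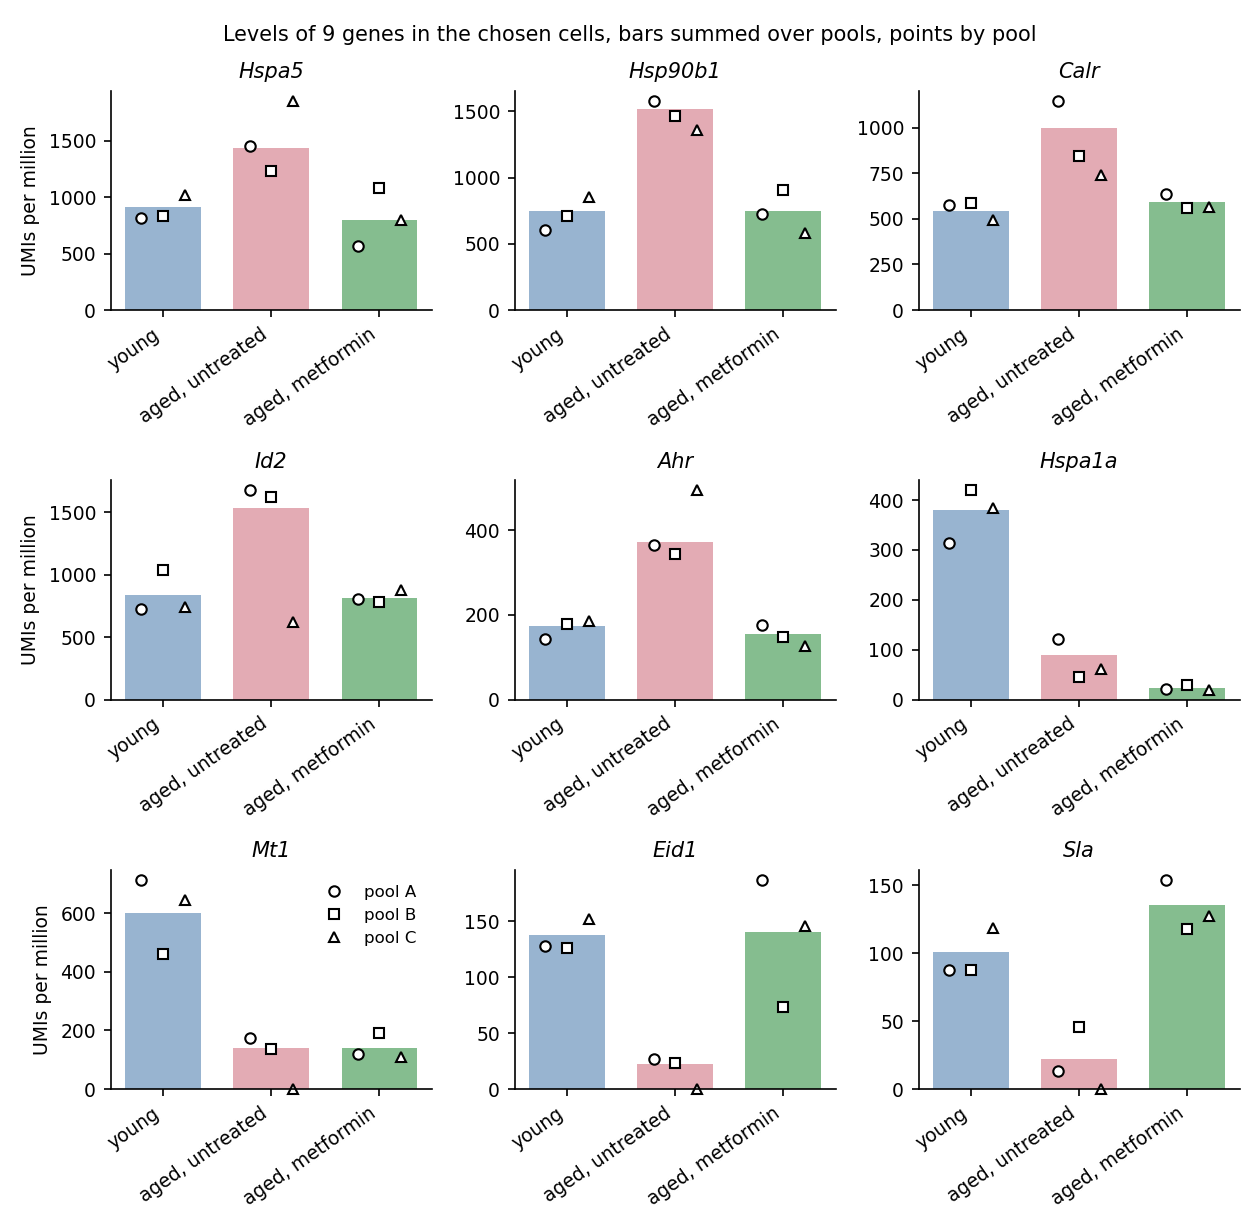
Levels in CPM (vertical axes) of 9 genes in the 188 chosen cells by condition. Bars are summed over pools and points are pools A, B and C. The aged points lie above all others for Hspa5, Hsp90b1, Calr and Ahr, below all others for Eid1 and Sla, and the young points lie above all others for Hspa1a and Mt1.

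Summed over pools, all 15 ER genes were higher in aged than in young and than in metformin cells. Within pools A, B and C, 15, 13 and 11 of them were higher in aged than in young cells. Only 14, 11 and 8 were higher in aged than in metformin cells. Over young, 3 of the 15 were past the fold, beside the 10.7% given above. Nothing is read from these counts, since the list was chosen by these values. Summed, the list was at 4791, 8057 and 4793 CPM, log2 ratios of 0.75 (0.65 to 0.84) and -0.75 (-0.87 to -0.62). By pool it was 4352, 4895 and 4949 CPM in young, 8485, 7752 and 6920 CPM in aged and 4154, 5827 and 4569 CPM in metformin cells. The aged cell with the most UMIs of the list held 17.1% of them, and without the top cell of each condition the sums were 4705, 7183 and 4310 CPM. Cell by cell, the median was 4032 CPM in young, 5845 CPM in aged and 4257 CPM in metformin cells. The middle part of the aged cells, from the first to the third quartile, ran from 4487 to 9275 CPM and that of the young cells from 2993 to 6171 CPM, so single cells overlapped widely.

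**Figure D5:**
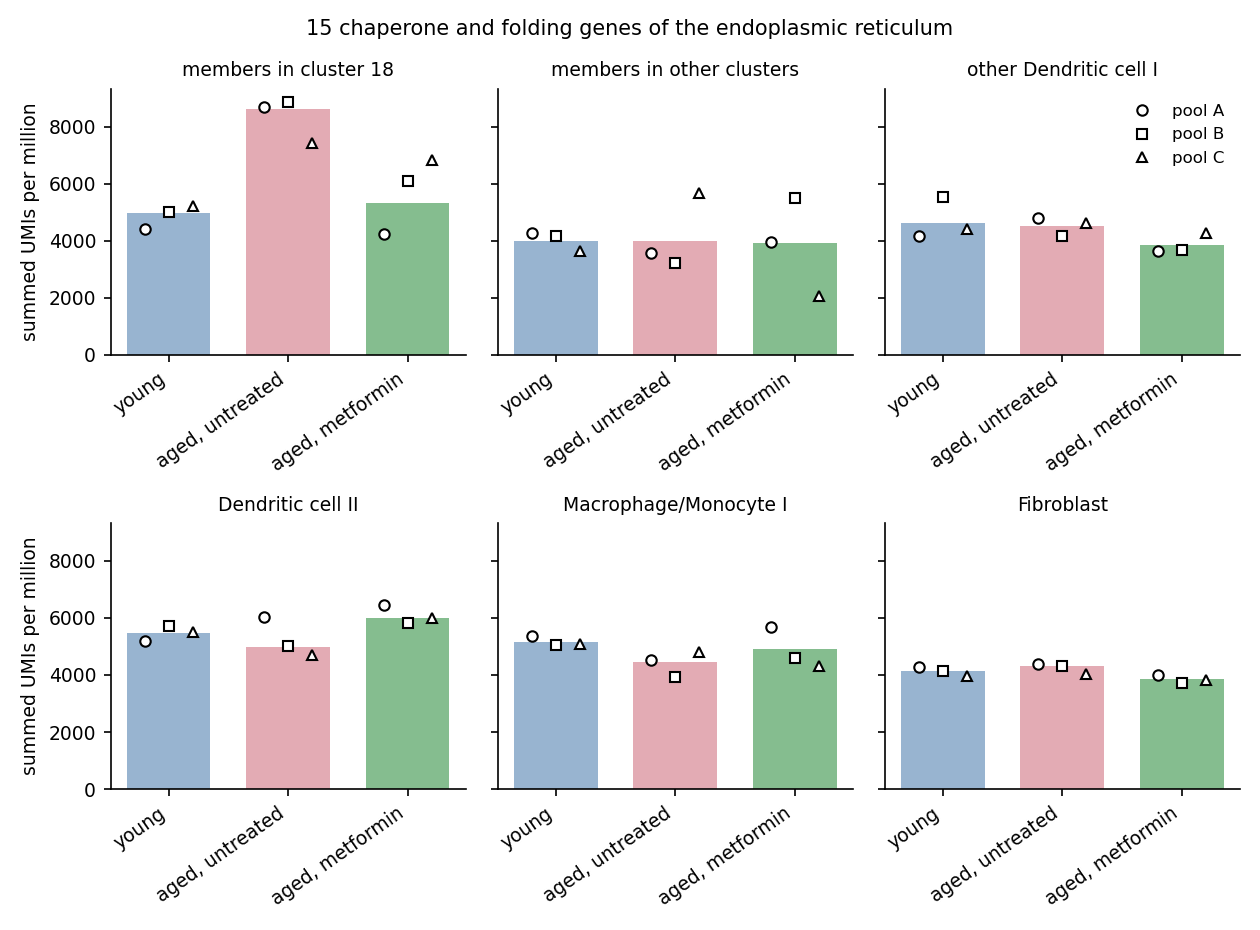
Summed level in CPM (vertical axes) of the 15 ER genes by condition in 6 sets of cells, bars for all pools and points for pools A, B and C. The aged bar stands above the others in chosen cells of cluster 18 (4986, 8629 and 5324), and in no other set do all aged points lie above the young and metformin points.

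Among the chosen cells the higher aged level was seen in those of cluster 18, as the plot of the summed ER genes by cell set shows. There the list summed to 4986, 8629 and 5324 CPM, with all 15 genes higher in aged than in young and 13 of 15 higher than in metformin cells. Within pools A, B and C these counts were 15, 14 and 11 over young, and 14, 10 and 6 over metformin cells. In chosen cells elsewhere, 3 of them aged, the sums were 4002, 3994 and 3909 CPM. The Dendritic cell I cells not chosen gave 4637, 4510 and 3839 CPM, Macrophage/Monocyte I 5162, 4458 and 4915 CPM, and Fibroblast 4125, 4302 and 3854 CPM. Only 4 and 2 of the 15 genes were higher in aged than in young cells in the first and second of these classes, and 10 in Fibroblast. In NK cell/ILC 10 of 15 were higher, with sums of 3260, 3368 and 3611 CPM. In B cell I 12 were higher and 3 past the fold, as many as in the chosen cells, with sums of 2076, 2555 and 2527 CPM. Whether the cluster 18 cells differ from the other classes in this was not tested, since there is 1 sample per condition.

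Some of the ER genes hold a known element before their start. The ER stress response element, spelled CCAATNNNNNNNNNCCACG and searched on both strands, is the site through which the unfolded protein response is known to raise such genes. It was found in 37 of 32851 RefSeq windows of 250 bases before a start (0.113%), which belong to 35 of 27025 genes. Of the 15 list genes 13 had a window, and 7 held the element: Calr, Canx, Creld2, Dnajc3, Hsp90b1, Hspa5 and Pdia6. The element is known from such genes and the list was drawn up after values were seen. The count in the list beside that of all genes is therefore no test, and no enrichment is read from it. A match is a description of letters, and nothing on binding was measured here. Pdia3, whose aged pools also stood apart, is not among the 7. The windows of the 3 genes described first, which hold it, are shown 5′ to 3′ on the gene's strand (RefSeq, GRCm38.p6), with the element or its reverse complement in capitals. The element begins 65 bases before the start in Hspa5 and 162 bases before it in Calr, and Hsp90b1 has 2, the first 212 bases before its start.
Hspa5, chr2:34771840-34772089, plus strand: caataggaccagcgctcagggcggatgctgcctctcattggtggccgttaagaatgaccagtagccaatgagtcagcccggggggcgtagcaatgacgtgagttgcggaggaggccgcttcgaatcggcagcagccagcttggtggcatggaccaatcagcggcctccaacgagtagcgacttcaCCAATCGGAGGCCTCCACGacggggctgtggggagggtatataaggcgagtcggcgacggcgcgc
Hsp90b1, chr10:86705445-86705694, minus strand: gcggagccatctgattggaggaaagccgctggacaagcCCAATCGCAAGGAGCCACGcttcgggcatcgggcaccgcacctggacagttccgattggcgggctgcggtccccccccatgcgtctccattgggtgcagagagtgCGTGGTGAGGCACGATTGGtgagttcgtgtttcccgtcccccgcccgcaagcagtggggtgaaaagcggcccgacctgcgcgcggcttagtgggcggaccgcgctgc
Calr, chr8:84846932-84847181, minus strand: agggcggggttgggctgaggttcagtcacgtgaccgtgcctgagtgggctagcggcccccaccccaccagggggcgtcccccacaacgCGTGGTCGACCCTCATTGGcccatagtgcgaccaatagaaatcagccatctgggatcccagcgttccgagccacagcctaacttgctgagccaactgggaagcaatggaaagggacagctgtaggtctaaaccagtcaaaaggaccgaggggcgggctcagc

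A cytosolic heat shock pair was lower in aged cells. Hspa1a, the inducible Hsp70, was at 315, 419 and 383 CPM in young pools, 121, 45.7 and 61.8 CPM in aged pools, and 22.0, 29.4 and 18.2 CPM in metformin pools. Hspa1b was at 309, 14.9 and 23.4 CPM summed. All young pools lay above all others for both genes. The pair are known as near-identical gene copies, so reads may be split between them and single values are uncertain. Lower levels were also measured in other classes: Hspa1a was at 327, 78.6 and 17.2 CPM in the Dendritic cell I cells not chosen, at 370, 94.04 and 53.7 CPM in Macrophage/Monocyte I and at 225, 160 and 82.8 CPM in Fibroblast. Digestion of tissue is known to raise these genes, and handling times per suspension are not given. The part of handling in the result was not tested. Mt1, a metallothionein that binds zinc and copper, was at 713, 460 and 646 CPM in young pools, 175, 137 and 0 CPM in aged pools, and 121, 191 and 109 CPM in metformin pools. The young pools again lay highest, and in the cells not chosen Mt1 was at 1139, 197 and 608 CPM. The list of dissociation and immediate early genes, which holds Fos and Jun, summed to 14649, 12034 and 11824 CPM.

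Transcription factors of the lineage were at like or higher levels in aged cells. Irf8 was at 962, 1232 and 1165 CPM in young pools, 1349, 1212 and 1050 CPM in aged pools, and 1198, 866 and 947 CPM in metformin pools, and the pools of all 3 conditions overlapped. Batf3 summed to 158, 231 and 201 CPM, with a log2 ratio of 0.55 (-0.05 to 1.10) for aged over young. Id2, an inhibitor of E proteins, was at 724, 1039 and 739 CPM in young pools, 1673, 1624 and 618 CPM in aged pools, and 802, 778 and 874 CPM in metformin pools. Aged pools A and B stood above all others, and pool C, with 4 cells, lay below all others. The summed Id2 ratios were 0.87 (0.65 to 1.09) and -0.91 (-1.21 to -0.61). Id2 was also higher in the Dendritic cell I cells not chosen, at 181, 500 and 220 CPM. Ahr, the aryl hydrocarbon receptor, was at 143, 178 and 186 CPM in young pools, 364, 343 and 494 CPM in aged pools, and 176, 147 and 127 CPM in metformin pools. No aged pool overlapped another condition, and in the cells not chosen Ahr was at 56.7, 39.3 and 20.6 CPM. Of 15 transcription factors measured in all chosen cells, 11 were above 0 on the log2 scale for aged over young, beside 3585 of 5381 for all genes. None of the 15 was past the fold, with a median of 0.16 beside 0.26 for all genes. In cluster 18, 13 of 14 were above 0, beside 3167 of 4718 for all genes there. Past the fold higher were 3 of the 14, beside 10.9% of all genes there. The median there was 0.21 beside 0.27 for all genes.

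Genes of antigen presentation differed by small ratios in their sums. Those of antigen uptake had a lower sum over all chosen aged cells, but in cluster 18 the interval held 0. MHC class II genes with Cd74 summed to 49316, 43636 and 46284 CPM. For aged over young 6 of 14 were above 0, beside 3585 of 5381 for all genes. H2-Ab1, a class II chain, was at 7745, 7655 and 7967 CPM in young pools, 5814, 7043 and 11182 CPM in aged pools, and 6440, 8557 and 7610 CPM in metformin pools. The aged pools thus spread to both sides of the young ones. MHC class I and cross-presentation genes summed to 9380, 10042 and 9260 CPM. Of these 15 of 20 were above 0 for aged over young, beside 3585 of 5381 for all genes. Their median was 0.22, beside 0.26 for all genes. B2m, the light chain of class I, was at 1371, 1119 and 1149 CPM. Among 12 receptors for antigen and dead cells, 4 were past the fold lower and 1 higher in aged cells, beside 5.24% and 10.7% of all genes. In cluster 18 it was 2 and 1 of 9, beside 4.81% and 10.9% of all genes there. The list of uptake receptors summed to 1617, 1313 and 1388 CPM, a log2 ratio of -0.30 (-0.53 to -0.08) for aged over young and of -0.10 (-0.36 to 0.16) in cluster 18. This list holds Cd209a, given above as high in chosen cells outside cluster 18. Cd36, a scavenger receptor, was at 151, 74.6 and 103 CPM, with a log2 ratio of -1.01 (-2.10 to -0.10) for aged over young. Its aged pools, at 61.8 to 80.9 CPM, lay below the young pools at 132 to 172 CPM. Cst3, the protease inhibitor cystatin C, used as a marker of dendritic cells, was at 33783, 36914 and 30394 CPM in young pools, 20424, 22045 and 32312 CPM in aged pools, and 20167, 24366 and 24977 CPM in metformin pools. The low aged value thus rested on pools A and B, and pool C lay among the young pools. In cluster 18 Cst3 summed to 37408, 23988 and 30464 CPM.

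Chemokines and cytokines were carried by few cells. Cxcl9, a ligand of Cxcr3 on T cells, summed to 219, 821 and 98.1 CPM, but 1 aged cell held 59.1% of the aged UMIs, and aged pool B was at 22.9 CPM against 1309 and 741 CPM in pools A and C. Ccl22, a chemokine of mature dendritic cells, had 157 UMIs in 15 of 144 young cells and none in 17 aged and 27 metformin cells. A count of 0 allows up to 17.6% and 11.1% of these cells to hold a Ccl22 UMI (3 cells of the total, counting error only), which is no limit on cells that express it, and the log2 ratio of aged over young is at most -2.59 with 3 UMIs put in place of 0. Ccl22 stood at 326 CPM in chosen cells outside cluster 18 and at 42.1 CPM inside it. Of the Dendritic cell I cells not chosen, 14.6%, 13.5% and 20.4% had a Ccl22 UMI, and no T cell/NKT cell did. Fscn1, which bundles actin in maturing dendritic cells, had 81 UMIs in 6 young cells, none in aged cells and 2 in metformin cells. In cluster 18 it had a UMI in 1 of 108 young, 0 of 14 aged and 1 of 14 metformin cells, so no ratio can be read there. A list of 16 genes of mature dendritic cells, which holds both, summed to 784, 507 and 215 CPM. Of 9 measured for the ages, 5 were above 0, beside 3585 of 5381 for all genes, and 4 below. Past the fold were 3 lower and 1 higher, beside 5.24% and 10.7% of all genes. In cluster 18 the list summed to 380, 562 and 209 CPM. The log2 ratio of aged over young there was 0.56 (0.16 to 0.95), with 45.5% of the aged UMIs in 1 cell.

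The summed level of interferon genes was lower in aged cells, though not in each pool. The list of 21 summed to 1719, 1030 and 1472 CPM, a log2 ratio of -0.74 (-0.999 to -0.49) for aged over young and 0.52 (0.22 to 0.81) for metformin over aged. Of 13 genes measured for the ages, 3 were above 0, beside 3585 of 5381 for all genes. Past the fold were 4 lower and 1 higher, beside 5.24% and 10.7% of all genes. In cluster 18, 1 of 8 was past it lower and 0 higher, beside 4.81% and 10.9% of all genes there. By pool the aged sums were 890, 823 and 2224 CPM against 2158, 1783 and 1434 CPM in young pools, so that aged pool C lay above all young pools. In cluster 18 the ratios were -0.53 (-0.84 to -0.23) and -0.14 (-0.55 to 0.27), the second with its sign turned. Isg15, a ubiquitin-like protein induced by interferon, was at 132, 149 and 86.9 CPM in young pools, 13.5, 22.9 and 61.8 CPM in aged pools, and 0, 29.4 and 18.2 CPM in metformin pools. Young pools lay above all others, with 138, 3 and 3 UMIs in all, and the cells not chosen had 85.6, 16.9 and 48.1 CPM. Ifitm3, which blocks entry of viruses, was at 969, 530 and 976 CPM summed and at 675, 366 and 419 CPM in cluster 18.

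Genes of the cell cycle were at low counts. Of 18 measured, 6 were past the fold higher in aged than in young cells, beside 10.7% of all genes, and none lower. In cluster 18, 2 of 14 were past it higher, beside 10.9% of all genes there. The list summed to 1352, 1768 and 1345 CPM over all chosen cells and to 1243, 1515 and 1114 CPM in cluster 18. Aged pool C was at 371 CPM while pools A and B were at 1997 and 1898 CPM, and in cluster 18 the aged pools were at 2084, 799 and 175 CPM. Mcm5, a subunit of the replicative helicase, was at 14.6, 23.1 and 21.7 CPM in young pools and 80.9, 137 and 61.8 CPM in aged pools, from 24 and 13 UMIs. It was at 28.0 CPM in metformin cells. Mki67 or Top2a, markers of dividing cells, had a UMI in 24 of 144 young, 2 of 17 aged and 8 of 27 metformin cells, and in 14.9%, 5.88% and 8.02% of T cell/NKT cells. Mitochondrially encoded genes summed to 16909, 16517 and 18505 CPM. Nuclear genes of respiratory complex I, the complex that metformin is known to inhibit, summed to 6115, 6647 and 7592 CPM. Of 35 of these measured between metformin and aged cells, 26 were above 0, beside 1038 of 2255 for all genes. Past the fold were 1 higher and 1 lower, beside 3.41% and 3.9% of all genes. The median was 0.17 beside -0.04 for all genes.

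Several genes were low or high in aged cells beside both other conditions. Eid1, an inhibitor of the acetyltransferase p300, was at 128, 126 and 152 CPM in young pools, 27.0, 22.9 and 0 CPM in aged pools, and 187, 73.4 and 146 CPM in metformin pools. Sla, an adaptor that dampens receptor signalling, was at 87.8, 87.5 and 119 CPM, at 13.5, 45.7 and 0 CPM, and at 154, 117 and 127 CPM in the same order. Both rest on 3 UMIs in the 17 aged cells. No aged pool overlapped another condition, which the rule for named genes partly sets. In the Dendritic cell I cells not chosen Eid1 was at 80.0, 95.5 and 65.3 CPM. Mycbp2, a large ubiquitin ligase, summed to 110, 37.3 and 201 CPM, and Smpdl3a, a phosphodiesterase that cleaves nucleotides, to 181, 67.1 and 229 CPM. In aged pool C, Mycbp2 at 124 CPM lay above all young pools and Smpdl3a at 185 CPM lay among them. Nampt, the enzyme that salvages nicotinamide for NAD, summed to 60.8, 179 and 32.7 CPM, with 45.8% of the aged UMIs in 1 cell. It had the same order in the cells not chosen, at 50.02, 140 and 79.0 CPM.

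Dynll1, a dynein light chain, was higher in aged cells and in part with metformin. It was at 176, 190 and 229 CPM in young pools, 445, 755 and 309 CPM in aged pools, and 363, 499 and 291 CPM in metformin pools. The young pools lay below all others. Anxa2, a membrane-binding annexin, did the same with 202, 463 and 388 CPM summed, and also in Macrophage/Monocyte I with 204, 453 and 334 CPM. Itgae was at 110, 185 and 130 CPM in young pools, 80.9, 22.9 and 61.8 CPM in aged pools, and 98.9, 103 and 18.2 CPM in metformin pools. Each young pool lay above each pool of the other conditions. Its summed log2 ratio of aged over young was -1.27 (-2.50 to -0.26), from 168 and 8 UMIs. Over all chosen cells, 72 of 144 young, 4 of 17 aged and 7 of 27 metformin cells had an Itgae UMI. In cluster 18 it was 71 of 108, 4 of 14 and 7 of 14, so the metformin level depends on the cells of other clusters. Fcrla, an Fc receptor-like protein, was at 92.4, 14.9 and 56.1 CPM, from 108, 2 and 12 UMIs.

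Some large ratios between metformin and aged cells came from 1 cell. A metformin cell of cluster 18 with 15915 UMIs held 139 of the 141 UMIs of theca and luteal markers in its condition, beside 1 UMI of Xcr1, 1 of Clec9a and 4 of Wdfy4. It carried 55 of 59 UMIs of Akr1cl, an aldo-keto reductase, 23 of 24 of Aldh1a1, a retinal dehydrogenase, 22 of 23 of Mgarp, a mitochondrial protein of steroid-making cells, and 20 of 23 of Alas1, which starts haem synthesis. Without it these genes were at 20.2, 5.05, 5.05 and 15.1 CPM in metformin cells, and at 7.46, 0, 7.46 and 14.9 CPM in aged cells. Mdh2, mitochondrial malate dehydrogenase, was at 187, 172 and 467 CPM summed, and at 155, 162 and 179 CPM in cluster 18, so that its metformin value lay with the cells of other clusters, at 946 CPM. AY036118 had 74.3% of its metformin UMIs in 1 cell.

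RNA for ligands of receptors of these cells was counted in other classes, and no signalling was measured. Xcl1, the ligand of Xcr1, had 85.5%, 87.7% and 77.6% of its UMIs in NK cell/ILC. In that class it was at 1974, 2169 and 2444 CPM in young pools, 1841, 2123 and 3060 CPM in aged pools, and 1957, 2743 and 2762 CPM in metformin pools. The pools overlapped across conditions. Flt3l, the growth factor of dendritic cells, was at 4.43 CPM in young, 8.11 CPM in aged and 7.98 CPM in metformin Fibroblast cells, a log2 ratio of 0.87 (0.28 to 1.47) for aged over young. Its level was higher in lymphocytes, where the intervals for the ages held 0. It was at 29.7, 34.1 and 20.9 CPM in NK cell/ILC, with a ratio of 0.20 (-0.73 to 1.07) for aged over young. In T cell/NKT it was at 26.3, 27.3 and 38.4 CPM and in T cell/ILC at 32.6, 29.4 and 35.5 CPM, with ratios of 0.06 and -0.15. T cell/NKT held 33.1% of its UMIs in metformin ovaries. The receptor of Flt3l, Flt3, was at 125, 104 and 65.4 CPM in the chosen cells, with log2 ratios of -0.26 (-1.17 to 0.53) and -0.68 (-1.85 to 0.50).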

How the data were processed

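Single cells of mouse ovary were sequenced with the 10x 3′ v3 kit on a NextSeq 500 in 3 multiplexed pools. The submitters' processing notes name Cell Ranger 3.0.2 and the builds GRCm38 and mm10. The authors deposited a table of raw UMI counts (18789 genes) and a cell table with tags, clusters, class names and the percent of mitochondrial UMIs. The deposited cells had at least 500 UMIs and at most 20.0% mitochondrial UMIs, and the doublet column marked 0 of them; no doublet caller was run here. Counts were summed per condition and pool over the chosen cells. Genes were named by rank on the interval bound nearest 0, the 10 highest and 10 lowest per comparison whose sign all pools with at least 5 UMIs shared, leaving out rule, mitochondrial, ribosomal, haemoglobin and other-class marker genes. List members were named when among the 4 with most UMIs or when their interval left out 0, and Naaa, Irf8, Batf3 and Flt3 always. The text describes a part of these. The members and lists were chosen with earlier results of these data known. Intervals are exact and cover counting error only. The scripts were tested on simulated data. Python 3.11.15, numpy 2.4.6, scipy 1.17.1, pandas 2.3.3 and matplotlib 3.10.9 were used. Mice of the reversal study and middle-aged mice were not analysed here.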

Additional observations from a re-analysis of the deposited data

Results flagged for a closer look

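The rule also takes cells of classes that the comparisons leave out, at shares above those of T cell/NKT (0 of 975) and Fibroblast (0.0228%, 1 of 4385). UMIs below are totals of the whole class, not of the cells that met the rule. In Dendritic cell II 24% of cells (18 of 75) had 2 or more UMIs of the 3 genes, and the class held 53 UMIs of Clec9a, 9 of Wdfy4 and 0 of Xcr1. In Macrophage II 6.54% of cells (7 of 107) did, and the class held 27 UMIs of Wdfy4 and 10 of Xcr1. In Macrophage/Monocyte I 3.72% of cells (78 of 2094) did, and the class held 437 UMIs of Wdfy4, 46 of Clec9a and 19 of Xcr1. In B cell I 1.34% of cells (6 of 449) did, and the class held 60 UMIs of Wdfy4 and 0 of the other two. Fewer cells met the rule in GC - Follicular (4 of 1283), B cell II (1 of 60), Neutrophil (1 of 350) and NK cell/ILC (1 of 843). Cluster 18 also held 4 cells of GC - Follicular.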

How the results depend on the processing

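With 1 sample per condition, 17 aged cells and pools that are technical repeats, depth limits these values: genes under 20 UMIs cannot be compared, and intervals leave out the spread between mice. No paired analysis was possible because each condition is 1 sample and no test was made. The share ratio of aged over young (0.302) was 0.462 after thinning and 0.658 among Dendritic cell I cells, and that of metformin over aged (1.26) was 0.898 among immune cells and 0.794 in cluster 18. The median log2 ratio of aged over young (0.26) was 0.80 with 5 UMIs added, 0.73 without the UMI minimum and 0.069 with proportional addition. That of metformin over aged (-0.04) was -0.13, -0.090 and -0.016 under these, -0.0025 by mean of cells, 0.070 thinned, -0.071 in cluster 18 and -0.071 to -0.029 without 1 pool. Genes past the fold higher in aged than young (578) numbered 1985 with 5 UMIs added, 136 with at least 50 UMIs, 5009 without the minimum, 135 thinned, 231 with proportional addition and 376 to 816 without 1 pool. Those lower (282) numbered 10 with 5 UMIs added, 106 with at least 50 and 67 thinned. Higher in metformin than aged (77) became 27, 14, 809, 123 by mean of cells, 13 thinned, 41 in cluster 18 and 40 to 71 without 1 pool, and lower (88) became 11 with at least 50 UMIs, 1747 without the minimum, 167, 9 and 55 to 105. The higher part of past-fold genes was 46.7% for metformin over aged, 28.9% in cluster 18 and 56.1% with proportional addition. Among named genes 14 of 294 alternative values changed sign, and 9 of these were of values whose interval left out 0: Fscn1 aged over young (0.27 thinned, 1.995 in cluster 18, where 1 UMI stands against 0) and, for metformin over aged with 1 UMI added, Akr1cl (-0.45 to 5.19 without 1 pool, lowest without A), Aldh1a1 (-0.67 thinned, -1.04 to 4.21 without 1 pool, lowest without A), Mgarp (-0.67 thinned, -1.04 to 4.09, lowest without A), Alas1 (-0.67 thinned) and AY036118 (-0.17 to 2.85, lowest without C). In all, 251 of the 294 were counted as unchanged, moving by less than the standard deviation of the ratio over the 3 pools. Of 414 alternative values of list medians, 49 did not stay within the standard deviation of the median over the pools, and 103 changed sign. The causes were not tested. Some alternatives were chosen after seeing the data.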
